A study of Mus musculus with 8 samples.

Results

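The RNA-binding splicing regulators described here are 10 genes of 4 families: Elavl2, Elavl3 and Elavl4, Rbfox1, Rbfox2 and Rbfox3, Nova1 and Nova2, and Ptbp1 and Ptbp2. They were chosen by symbol, as the rows of these names among the 32285 genes of the count table. No measured value entered that rule, but the members were chosen with earlier results of these data known. All 10 had a row, and all 10 passed the filter on low counts in every comparison. Messenger RNA of neonatal mouse brain was sequenced in 8 libraries. The ICSI-F2 group held 4 libraries of C57BL/6 males, sired by natural mating by fathers that had themselves been conceived by intracytoplasmic sperm injection (ICSI), in which a sperm is injected into an oocyte. The control group held 4 libraries of neonates of naturally mated wild-type C57BL/6 parents, whose sex is not given in the labels. The labels name no allele or agent in either group, and give neither the exact age nor the brain region dissected. A letter in the library code is F for ICSI-F2 replicates 1 and 2, G for ICSI-F2 replicates 3 and 4, A for control replicates 1 and 2 and D for control replicates 3 and 4. The sources used here do not say what the letter stands for. Replicate numbers follow the deposition order. The labels do not say whether the libraries of a group came from separate animals or litters, so p-values reflect the spread among these libraries alone, which may be technical.

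Splicing regulators of this kind bind short motifs in pre-mRNA and influence whether a nearby alternative exon is kept or skipped. PTBP1 is made in progenitors and non-neuronal cells, where it represses many neuronal exons. As neurons form, the microRNA miR-124 lowers PTBP1, and its paralog PTBP2 largely takes its place. ELAVL2, ELAVL3 and ELAVL4, also called HuB, HuC and HuD, are proteins found mainly in neurons that bind U-rich and AU-rich RNA and act on both splicing and mRNA stability. RBFOX proteins bind the motif UGCAUG, and RBFOX3 is the antigen of the neuronal marker antibody NeuN. NOVA1 and NOVA2 bind clusters of YCAY and are antigens of an autoimmune neurological disease in human patients.

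The exons shown next are those through which the PTBP and RBFOX proteins are known to regulate transcripts of their own families, and they also show how far a read can tell paralogs apart. A 34-base exon of Ptbp1 and Ptbp2 shifts the reading frame when it is skipped, which leads to decay of the transcript. It lies at chr10:79862014-79862047 on the plus strand in Ptbp1 and at chr3:119724612-119724645 on the minus strand in Ptbp2, in mm10. Capitals mark the positions at which the paralogs differ, and each sequence runs 5′ to 3′ on the strand of its gene.
Ptbp1: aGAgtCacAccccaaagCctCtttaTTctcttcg
Ptbp2: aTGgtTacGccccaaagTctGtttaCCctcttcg
The pair shared 26 of 34 bases (76.5%), with no identical run longer than 8 bases. GENCODE M21 lists 2 Ptbp1 transcripts that skip the exon, both of the nonsense-mediated decay class, and 3 Ptbp2 transcripts that skip it, of which 2 are of that class.

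A 93-base exon of the Rbfox genes encodes a stretch of the RNA recognition motif, and its skipping gives a protein that binds RNA poorly. It lies at chr16:7292185-7292277 on the plus strand in Rbfox1, at chr15:77105577-77105669 on the minus strand in Rbfox2 and at chr11:118502842-118502934 on the minus strand in Rbfox3, in mm10. Capitals mark the 26 positions at which the 3 paralogs are not all the same.
Rbfox1: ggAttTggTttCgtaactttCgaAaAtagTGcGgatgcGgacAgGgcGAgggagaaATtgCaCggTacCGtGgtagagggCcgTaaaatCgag
Rbfox2: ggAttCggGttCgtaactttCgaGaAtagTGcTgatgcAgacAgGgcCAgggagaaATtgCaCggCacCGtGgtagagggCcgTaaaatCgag
Rbfox3: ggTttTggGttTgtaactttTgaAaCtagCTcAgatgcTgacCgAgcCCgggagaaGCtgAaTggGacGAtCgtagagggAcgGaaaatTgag
Rbfox1 and Rbfox2 shared 86 of 93 bases (92.5%), and Rbfox3 shared 69 of 93 (74.2%) with each of them. The longest identical run was 27 bases between Rbfox1 and Rbfox2 and 8 bases between Rbfox3 and either of them. Reads were 76 bases long, and 0 stretches of 76 bases in the annotated transcripts of any member occurred in another member of its family, so a read without mismatches could be placed on a single paralog. Outside its family, 88 of 5397 such stretches of Ptbp1 (1.63%) also occurred in Gm4900, a gene with no row in the count table. The deposited values are counts per gene and hold no exon usage, so whether these exons were kept or skipped was not analysed here.

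The genes differ widely in span. Rbfox1 covers 1526 kb at chr16:5885355-7411526, and Ptbp1 covers 10.35 kb at chr10:79854427-79864771, while their exons merged over all transcripts hold 4400 and 4740 bases. The other members lie at chr4:91250763-91400785 (Elavl2), chr9:22015005-22052023 (Elavl3), chr4:110203722-110351909 (Elavl4), chr15:77078990-77307004 (Rbfox2), chr11:118489762-118911597 (Rbfox3), chr12:46694517-46818929 (Nova1), chr7:18925888-18965319 (Nova2) and chr3:119718742-119784466 (Ptbp2). All 10 are protein-coding genes in GENCODE M21. Nova2, on the plus strand, shares 2652 exon bases (31.7% of its exons) with the long noncoding RNA gene Gm26821 on the minus strand. Gm26821 has no row in the count table. Ptbp1 shares 251 bases (5.3%) with Plppr3, a gene of the opposite strand that stood at 269.5 to 294.1 counts per 1000000 (CPM), 295 bases (6.22%) with E130317F20Rik and 437 bases (9.22%) with Gm17134, both also on the opposite strand. The libraries were stranded, but how strand was set in counting was not found in the labels. Whether reads of the opposite strand on these shared bases entered the counts of Nova2 or Ptbp1 can therefore not be told. Elavl3 and Nova1 each share exon bases, 3.72% and 3.54% of their own, with a gene of the same strand that has no row in the count table. The other 6 members share none.

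Library totals ran from 12968175 to 16551511 counts, with 20038 to 20490 genes detected. Levels of a gene are given as CPM, counts per 1000000 of the library total after TMM scaling. The libraries held the markers of the labelled tissue: 10 of 10 neuron markers were tested, and their summed level was 7288 to 7374 CPM in ICSI-F2 and 7487 to 7725 CPM in control brains. Libraries also differed in what else they held. The summed level of 10 posterior Hox and glycinergic genes was 82.3 and 127.6 CPM in the code A libraries and 21.1 to 38.6 CPM in all others, with Hoxa5 at 16.3 and 5.96 CPM in code A and at most 0.0766 CPM elsewhere. The summed level of 7 liver markers was 32.1 and 52.4 CPM in the code G libraries and 9.82 to 11.4 CPM in all others, with Alb, serum albumin, at 10.4 and 20.2 CPM in code G, at or below 0.0767 CPM in code F and listed at 0 in the 4 control libraries. The comparison of the groups was therefore also run without the code A and without the code G libraries.

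None of the 10 regulators passed the test between ICSI-F2 and control brains, and their levels lay close together in both groups. In edgeR's quasi-likelihood F test over 15565 genes, 0 of 10 passed an adjusted p of 0.05, against 0.00642% of all tested genes, which is the single gene Tmem267. The DESeq2 Wald test and limma voom also called 0 of the 10. At an unadjusted p under 0.05 edgeR gave 2 of 10, Elavl4 and Nova1, against 7.3% of all tested genes. Both were lower in ICSI-F2 brains, as were 3.37% of tested genes at that p. The DESeq2 Wald test gave 0 of 10 at that p, where 419 of 15565 tested genes were higher and 373 lower in ICSI-F2 brains. Scaling libraries by their totals alone in edgeR also gave 0 of 10, where 783 tested genes were higher and 386 lower. Libraries of the groups overlapped for all 10 members, where 3.97% of tested genes had no overlap. The fold change was above 1 for 3 members and below 1 for 7, where 49.6% of all tested genes lay below 1. The median log2 fold change of the 10 was -0.024, against 0.00065 over all tested genes. Differences were small, between a level 5.62% lower (Elavl4) and 2.89% higher (Ptbp1) in ICSI-F2 brains. The 95% interval of every member lay within 1.12-fold of no change.

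The members were abundant and varied little between libraries. Their counts per library ran between 863 and 12603. Standard errors of the log2 fold change were 0.027 to 0.048, against a median of 0.077 over all tested genes. Across all 8 libraries, the highest CPM of a member exceeded its lowest by 1.06-fold (Rbfox2) to 1.15-fold (Elavl4). The biological coefficient of variation that edgeR fitted was lower than that of Rbfox2 in 0.366% of tested genes. It was lower than that of Ptbp2, the member with the highest fitted value, in 21.6%.

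**Figure D1:**
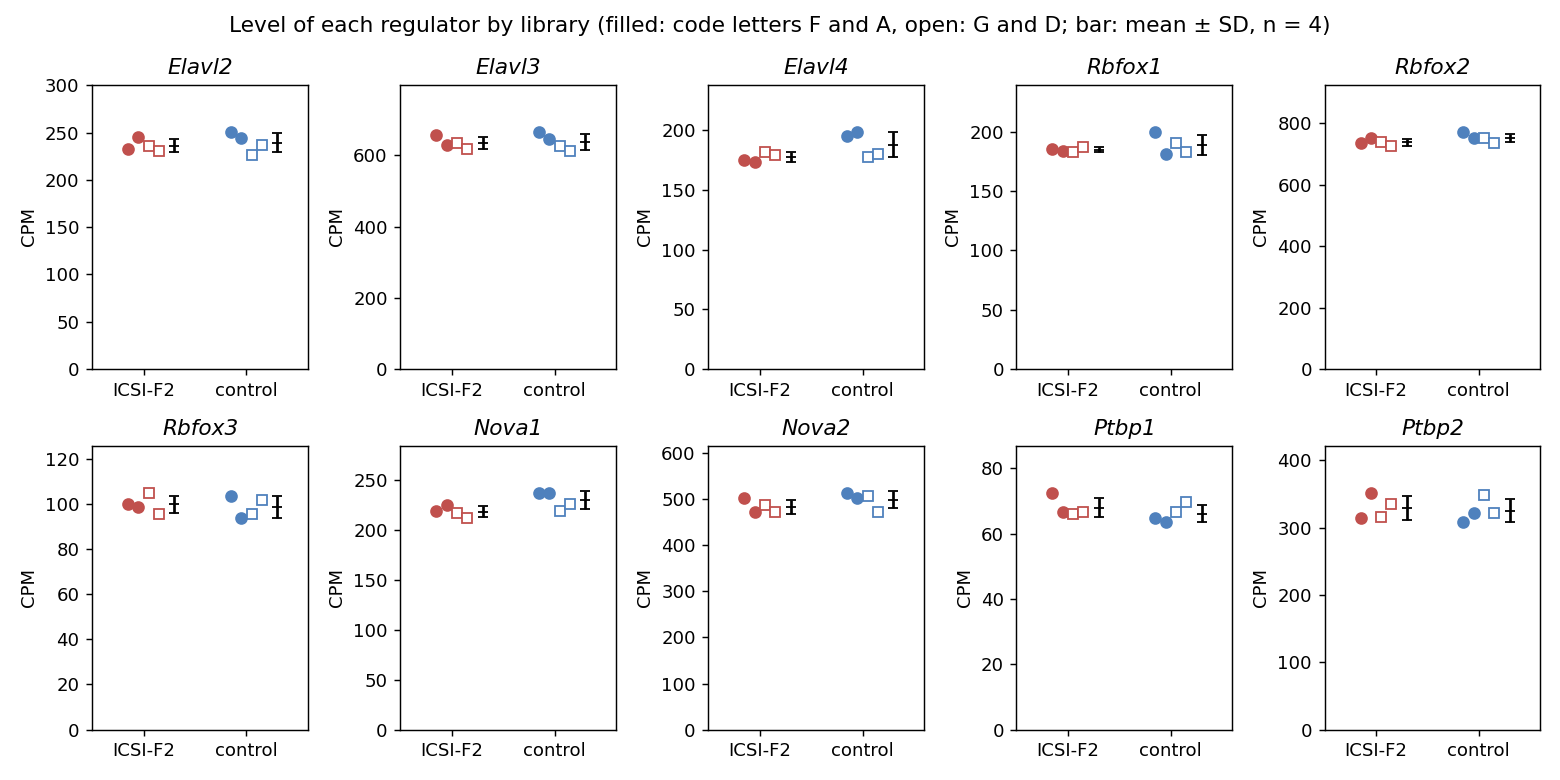
Level of each regulator in every library, in CPM on axes that start at 0. Red symbols are ICSI-F2 libraries and blue symbols control libraries, filled for code letters F and A and open for G and D, and bars give mean ± SD (n = 4). The points of the groups overlap in all 10 panels, and the clearest offset inside a group is that of the code A libraries in Elavl4, at 195 and 198 CPM.

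Among the ELAVL genes, Elavl3 was the most abundant and differed least. Elavl3, which encodes HuC, had 658, 629, 634.5 and 617.5 CPM in ICSI-F2 brains, against 665, 646, 627 and 612 CPM in control brains. In edgeR its log2 fold change, -0.0059 (SE 0.031, 95% interval -0.068 to 0.057), had an adjusted p of 0.982 in edgeR. Both groups covered nearly the same range, and the direction turned to 0.0051 when libraries were scaled by their totals alone.

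Elavl2, which encodes HuB, had 233, 246, 235 and 231 CPM in ICSI-F2 brains, against 250.4, 244, 226.5 and 237 CPM in control brains. The lowest and the highest library were both controls, so the ICSI-F2 values lay inside the control range. Its log2 fold change was -0.020 (SE 0.035), with an adjusted p of 0.937 in edgeR.

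Elavl4, which encodes HuD, a regulator of neuronal mRNA stability and axon growth, had the largest difference of the 10. Its level was 175, 173, 182 and 179 CPM in ICSI-F2 brains, against 195, 198, 177.5 and 180.4 CPM in control brains. All 4 ICSI-F2 libraries lay below the control mean of 188 CPM, but the groups overlapped, since the code D controls were as low as the ICSI-F2 libraries. In edgeR its log2 fold change, -0.084 (SE 0.038, 95% interval -0.16 to -0.0057), had an unadjusted p of 0.0363 and an adjusted p of 0.658 in edgeR. Without the code A libraries the log2 fold change was -0.014, with an unadjusted p of 0.742 in edgeR, and without control replicate 2 it was -0.056, with an unadjusted p of 0.172 in edgeR.

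None of the RBFOX genes passed the test between the groups. Rbfox2, which is also expressed outside the nervous system, had 737, 753, 739.6 and 725 CPM in ICSI-F2 brains, against 771, 751, 753 and 736 CPM in control brains. In edgeR its log2 fold change, -0.028 (SE 0.027, 95% interval -0.084 to 0.028), had an adjusted p of 0.864 in edgeR. It had the smallest standard error of the 10, and 1 of 4 ICSI-F2 libraries lay above the control mean of 753 CPM. Its log2 fold change was -0.012 without the code A libraries and -0.014 without the code G libraries.

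Rbfox1, a regulator of exons in synaptic and ion channel genes, had 185.5, 184, 183 and 187.5 CPM in ICSI-F2 brains, against 199.6, 181, 191 and 183 CPM in control brains. The ICSI-F2 libraries clustered with an SD of 2.1 CPM, against 8.4 CPM among controls, and lay inside the control range. Its log2 fold change was -0.029 (SE 0.036), with an adjusted p of 0.901 in edgeR. Without control replicate 1, the highest library, it was -0.00028, and without both code A libraries it was -0.015.

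Rbfox3, the NeuN gene of maturing neurons, had 100, 98.4, 104.8 and 95.7 CPM in ICSI-F2 brains, against 103, 93.8, 95.4 and 102 CPM in control brains. High and low libraries occurred in both groups. Its log2 fold change was 0.016 (SE 0.043), with an adjusted p of 0.966 in edgeR.

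The NOVA genes were both lower on average in ICSI-F2 brains, and neither difference passed the test. Nova1 had 219, 226, 217 and 213 CPM in ICSI-F2 brains, against 237, 237, 219 and 226.5 CPM in control brains. All 4 ICSI-F2 libraries lay below the control mean of 230.1 CPM, and the overlap came from control replicate 3. In edgeR its log2 fold change, -0.074 (SE 0.034, 95% interval -0.14 to -0.0036), had an unadjusted p of 0.040 and an adjusted p of 0.658 in edgeR. Without the code A libraries it was -0.028, with an unadjusted p of 0.483 in edgeR, and without the code G libraries it was -0.048, with an unadjusted p of 0.29 in edgeR. Nova2, known in mouse mainly from the neocortex, had 503, 471, 488 and 472 CPM in ICSI-F2 brains, against 513.5, 502, 508 and 473 CPM in control brains. Control replicates 1 to 3 and ICSI-F2 replicate 1 were at 502 CPM or above, and control replicate 4 was as low as the lowest ICSI-F2 libraries. For Nova2 a log2 fold change of -0.046 (SE 0.032, 95% interval -0.11 to 0.019) had an adjusted p of 0.783 in edgeR. Without control replicate 4 it was -0.072, with an unadjusted p of 0.0339 and an adjusted p of 0.682 in edgeR, and without the code A libraries it was -0.021. Leaving out each library in turn, the lowest adjusted p in edgeR was 0.62.

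Ptbp1, the non-neuronal repressor, was the member with the largest difference above 0. Its level was 72.5, 66.5, 66.1 and 66.8 CPM in ICSI-F2 brains, against 64.9, 63.5, 66.8 and 69.6 CPM in control brains. ICSI-F2 replicate 1 was the highest of the 8 libraries, and the other 3 ICSI-F2 libraries lay inside the control range. In edgeR its log2 fold change, 0.041 (SE 0.048, 95% interval -0.057 to 0.14), had an adjusted p of 0.89 in edgeR, and without the code A libraries it was -0.0020. Ptbp2, the paralog of neurons, had 314, 351, 316 and 335.5 CPM in ICSI-F2 brains, against 308, 322, 348 and 322 CPM in control brains. Each group held 1 library near 350 CPM and the groups overlapped. Its log2 fold change was 0.017 (SE 0.039), with an adjusted p of 0.96 in edgeR.

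**Figure D2:**
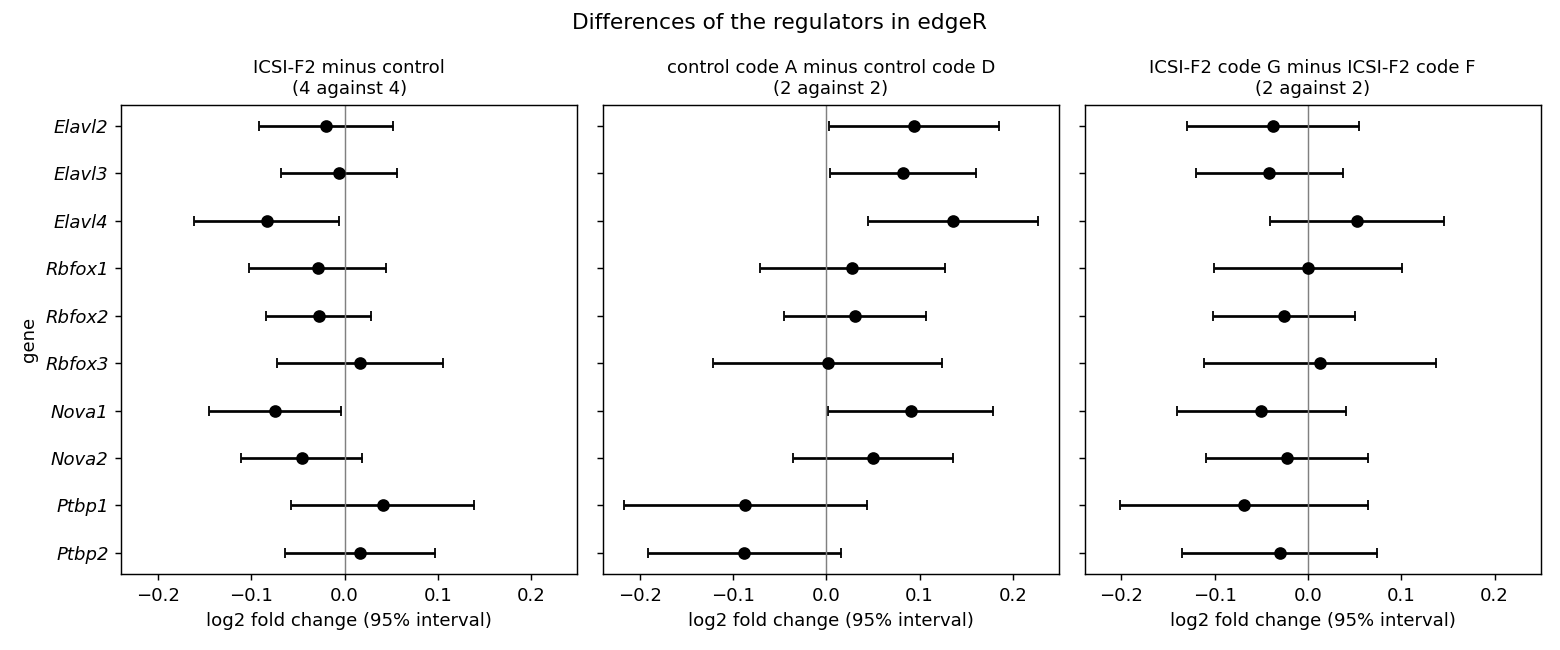
Log2 fold change of each regulator with its 95% interval in edgeR, for ICSI-F2 minus control on the left, code A minus code D controls in the middle and code G minus code F of ICSI-F2 on the right. In the left panel every interval stays within 0.161 of 0, and those of Elavl4 and Nova1 end just below 0. In the middle panel Elavl4 has the largest value, at 0.14.

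Levels of different genes were compared per length, as TPM, in which counts are divided by the merged exon length and scaled to a sum of 1000000 per library. Over all 8 libraries Elavl3 was at 439.9 ± 10.6 TPM and Rbfox2 at 436.5 ± 7.29 TPM (SD, n = 8). These 2 overlapped, with Elavl3 higher in 5 of 8 libraries. Nova2 followed at 279.7 ± 8.72 TPM and Rbfox1 at 202 ± 5.34 TPM, each clear of its neighbours in all 8 libraries. Ptbp2 at 170.0 ± 9.68 TPM and Elavl4 at 161 ± 6.77 TPM overlapped, with Ptbp2 higher in 6 of 8 libraries. Below them came Elavl2 at 136 ± 4.02 TPM, Nova1 at 122 ± 4.26 TPM, Rbfox3 at 81.2 ± 3.25 TPM and Ptbp1 at 67.5 ± 3.18 TPM, with no overlap between neighbours. On this length the NeuN gene Rbfox3 and the repressor Ptbp1 were the lowest of the set. Ptbp1 stood above 78% of tested genes in TPM, and Elavl3 above 98.7%.

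The order depends in places on the length used. With the longest coding transcript in place of merged exons, an alternative chosen after the data were seen, Ptbp2 averaged 297 TPM and moved to the third place. Nova2 averaged 201 TPM and moved to the fifth, and Elavl2 averaged 195 TPM. Nova1, at 107.6 TPM, then lay just below Rbfox3, at 108 TPM. Elavl3 stayed first at 435 TPM, Rbfox2 second at 370.4 TPM and Ptbp1 last at 72.6 TPM. Ptbp2 was the member with the most merged exon sequence, 9175 bases, against 3777 bases in its longest coding transcript.

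**Figure D3:**
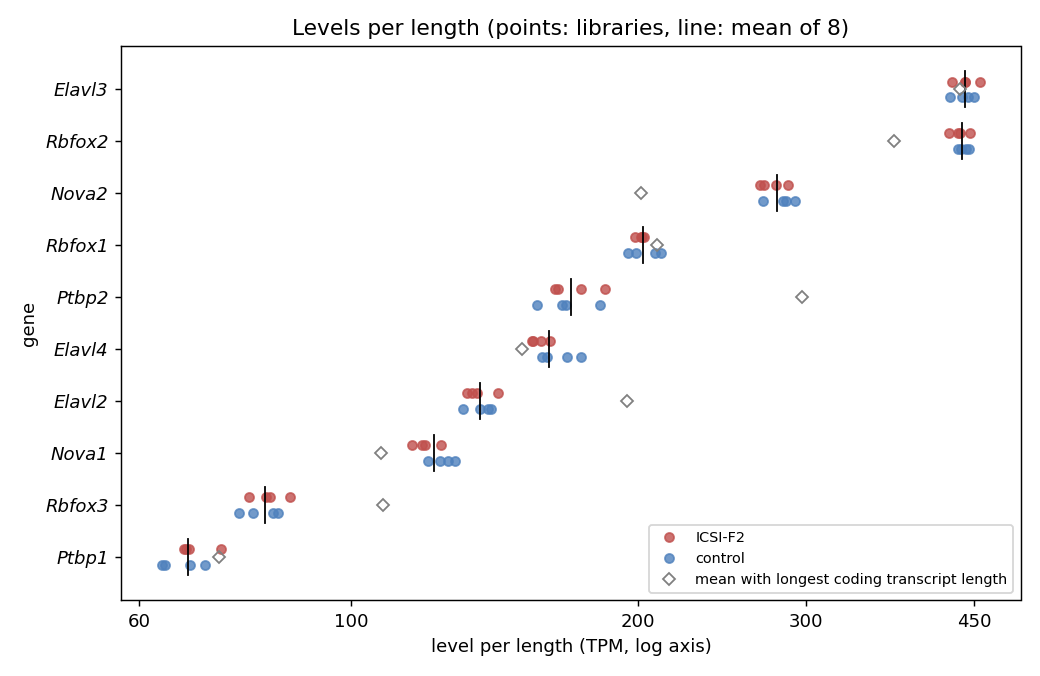
Level per length of the 10 regulators in TPM on a log axis, ordered by their mean, with red points for ICSI-F2 libraries above blue points for control libraries and a line at the mean of all 8. Open diamonds give the mean with the length of the longest coding transcript, which lies far to the right for Ptbp2 (297 TPM) and to the left for Nova2 (201 TPM).

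Within each family, the mean share of each gene in TPM differed by under 1 percentage point between the groups. Elavl3 made up 60 ± 0.8% of the summed ELAVL level in ICSI-F2 brains and 59.2 ± 0.68% in control brains (SD, n = 4 each). Elavl4 made up 21.5 ± 0.64% in ICSI-F2 brains and 22.3 ± 0.51% in control brains, and Elavl2 made up 18.5 ± 0.58% in ICSI-F2 brains and 18.5 ± 0.36% in control brains. Among the RBFOX genes, Rbfox2 held 60.5 ± 0.44% in ICSI-F2 brains and 60.7 ± 0.7% in control brains, and Rbfox3 held 11.4 ± 0.4% in ICSI-F2 brains and 11.1 ± 0.45% in control brains. Nova2 held 69.8 ± 0.86% of the NOVA level in ICSI-F2 brains and 69.4 ± 0.97% in control brains. These shares are descriptions with no test.

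The ratio of Ptbp2 to Ptbp1 tracks the exchange of one paralog for the other as neurons form. Per length it was 2.24, 2.73, 2.47 and 2.6 in ICSI-F2 libraries and 2.46, 2.62, 2.7 and 2.39 in control libraries. The neuronal paralog was the more abundant in every library, and the ranges overlapped. The mean ratio was 2.51 ± 0.21 in ICSI-F2 brains and 2.54 ± 0.14 in control brains (SD, n = 4 each), a log2 difference of -0.021. With the longest coding transcript as length, the mean ratio was 4.07 in ICSI-F2 and 4.13 in control brains. In bulk tissue, fewer cells of a type and less RNA per cell cannot be told apart, so the ratio is that of the whole tissue and not of any cell.

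**Figure D4:**
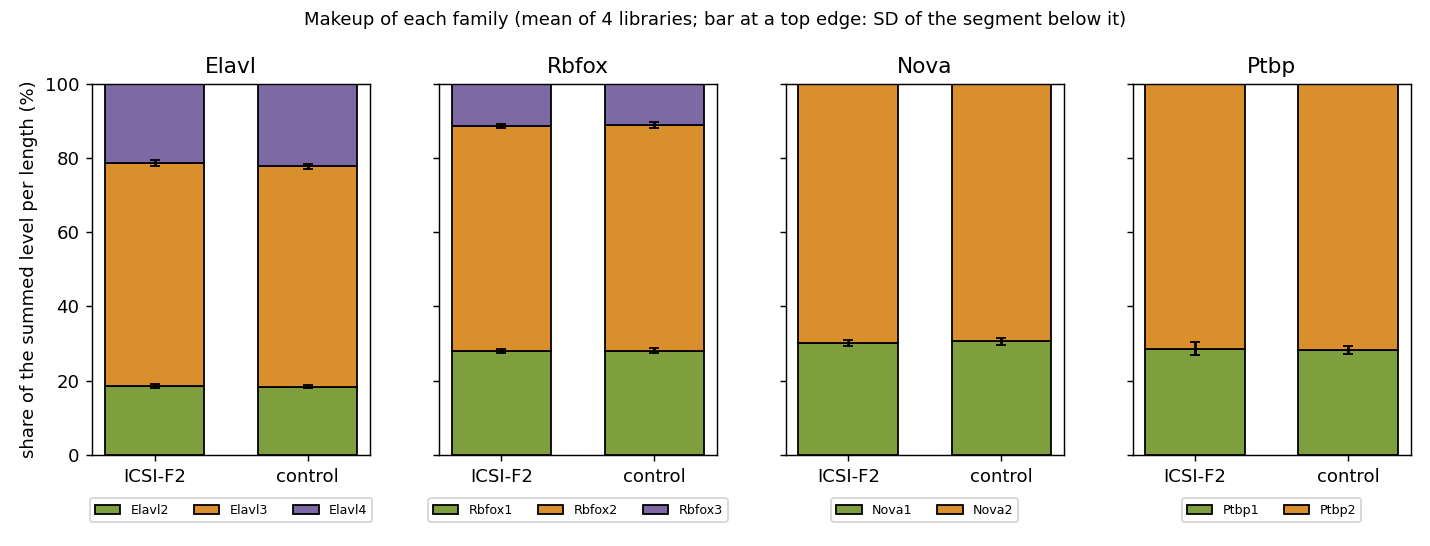
Share of each gene in the summed TPM of its family, in percent, as the mean of 4 libraries for ICSI-F2 (left bar of each panel) and control (right bar). Error bars give the SD of the segment below the edge they sit on. The bars of a panel differ by under 1 percentage point in each segment, with Elavl3, Rbfox2, Nova2 and Ptbp2 as the largest segments.

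Comparing the code letters inside each group shows how far these genes differed between libraries of the same group label. What sets the letters apart is not known. In 1 edgeR fit of all 8 libraries with the 4 letters as groups, 0 of 10 members passed between code A and code D controls, against 1.02% of 16101 tested genes. At an unadjusted p under 0.05 edgeR gave 4 of 10, against 11.1% of tested genes. These were Elavl2, Elavl3, Elavl4 and Nova1, all higher in code A, as were 6.15% of tested genes at that p. The DESeq2 Wald test gave 1 of 10 at that p, Elavl4, where 528 of 16101 tested genes were higher and 344 lower in code A. Scaling libraries by their totals alone in edgeR also gave only Elavl4, where 863 tested genes were higher and 967 lower. Elavl4, at 195 and 198 CPM in code A and 177.5 and 180.4 CPM in code D, had a log2 fold change of 0.14 (SE 0.045) with an unadjusted p of 0.00466 and an adjusted p of 0.158 in edgeR. For Elavl2 the log2 fold change was 0.094 with an adjusted p of 0.425 in edgeR, for Elavl3 it was 0.083 with an adjusted p of 0.412, and for Nova1 it was 0.091 with an adjusted p of 0.437. The libraries of the letters did not overlap for these 4 genes, nor for Ptbp1, which was lower in code A, at 64.9 and 63.5 CPM, against 66.8 and 69.6 CPM in code D. With 2 libraries a letter, 40.6% of all tested genes had no overlap, 20.4% as higher and 20.2% as lower in code A. Ptbp1 and Ptbp2 had log2 fold changes of -0.087 (SE 0.064) and -0.088 (SE 0.05), and neither passed. The value of Ptbp2 was -0.028 without control replicate 3 and -0.14 without control replicate 4, the last with an unadjusted p of 0.0197 and an adjusted p of 0.367 in edgeR.

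Both comparisons use the same control libraries, so their values for these 4 genes are not independent. Side by side, the log2 fold change of ICSI-F2 against control and of code A against code D was -0.084 and 0.14 for Elavl4, -0.074 and 0.091 for Nova1, -0.020 and 0.094 for Elavl2 and -0.0059 and 0.083 for Elavl3. Between code A and code D, 1.02% of all tested genes passed in edgeR, and the median log2 fold change over all tested genes was -0.0013. Code A libraries also held the posterior Hox genes described above, and 5 of 10 posterior Hox and glycinergic genes passed. The summed level of 10 progenitor markers was 1115 and 1139 CPM in code A, against 1016 and 1019 CPM in code D. Of these markers 2 passed, Vim with a log2 fold change of 0.22 and Pax6 with 0.65. Astrocyte and oligodendrocyte lineage markers summed to 511 to 530.2 CPM in code A and 455 to 474 CPM in code D, and 1 of 10, the water channel gene Aqp4, rose in code A with a log2 fold change of 0.74 and an adjusted p of 2.35e-05 in edgeR. Cerebellar granule lineage markers summed to 449 to 506 CPM in code A and 401 to 407 CPM in code D, with 7 of 7 fold changes above 1 and 1 called, Pax6, which is also a progenitor marker. Of the 10 neuron markers, 3 rose in code A relative to code D in edgeR: Nefh and Nefm, neurofilament genes, with log2 fold changes of 1.35 and 0.91, and Syp, which encodes the synaptic vesicle protein synaptophysin, with 0.22. The other 7 did not pass, and 3 of them had a fold change below 1, with log2 values of -0.029 for Tubb3, -0.033 for Map2 and -0.030 for Dcx. The part of any of these in the levels of Elavl4 or the other regulators was not tested.

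Between code G and code F of the ICSI-F2 group, 0 of 10 members passed in edgeR, against 0.329% of tested genes, and 0 of 10 had an unadjusted p under 0.05, against 6.9% of tested genes. Elavl4 was higher in code G, at 182 and 179 CPM, against 175 and 173 CPM in code F, with a log2 fold change of 0.053 (SE 0.046). Nova1 was lower in code G, at 217 and 213 CPM, against 219 and 226 CPM in code F, with a log2 fold change of -0.050 (SE 0.044). These were the only members whose libraries did not overlap, where 35.6% of tested genes had no overlap, 17.8% as higher and 17.7% as lower in code G. The intervals of all 10 lay within 1.15-fold of no change in code G against code F and within 1.17-fold in code A against code D.

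Other splicing regulators of brain were set beside the members. Of 28 listed, 27 were tested, 15 had a fold change above 1 and 12 below 1 in ICSI-F2 against control brains, and 0 passed in edgeR. At an unadjusted p under 0.05 edgeR gave 3 of 27, against 7.3% of tested genes. The median log2 fold change of the 27 was 0.016, against 0.00065 over all tested genes. Khdrbs2, which encodes the STAR protein SLM1, had the smallest p. It stood at 46.8, 55.3, 50.9 and 49.2 CPM in ICSI-F2 brains, against 41.1, 43.6, 46.8 and 46.1 CPM in control brains, and the ICSI-F2 libraries all exceeded the controls, though ICSI-F2 replicate 1 and control replicate 3 were nearly equal. Its log2 fold change was 0.19 (SE 0.059), with an adjusted p of 0.53 in edgeR. Over all tested genes, 3.97% had no overlap between the groups. Qk, a regulator best known from oligodendrocytes, had a log2 fold change of -0.072 with an adjusted p of 0.653 in edgeR. Srrm4, the activator of neuronal microexons, had -0.075 with an adjusted p of 0.658 in edgeR.

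Relatives of the members outside the set, chosen after their values were seen, were lower per length. Elavl1, the widely expressed HuR gene, was at 87.7 ± 2.11 TPM over the 8 libraries, below each of its neuronal paralogs, and Ptbp3 was at 37.3 ± 1.49 TPM, below Ptbp1 and Ptbp2. Their log2 fold changes between ICSI-F2 and control brains were -0.049 for Elavl1 and -0.047 for Ptbp3, and neither passed in edgeR (adjusted p of 0.777 and 0.87). Between code A and code D controls, 2 of the 27 passed in edgeR, against 1.02% of tested genes, and both were lower in code A. Celf2 had 925 and 950 CPM in code A, against 1114 and 1018 CPM in code D, a log2 fold change of -0.19 with an adjusted p of 0.023 in edgeR. Rbm24 had a log2 fold change of -0.47 with an adjusted p of 0.031 in edgeR.

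The genes of the switch by which PTBP1, miR-124 and the repressor REST are known to act were all tested. Of 14, 9 had a fold change above 1 and 5 below 1 in ICSI-F2 against control brains, with a median log2 fold change of 0.023. In edgeR 0 passed and 1 had an unadjusted p under 0.05, against 7.3% of tested genes. That gene was Flna, which encodes the actin crosslinker filamin A, with a log2 fold change of 0.095 and an adjusted p of 0.658 in edgeR. Rest, which represses neuronal genes outside neurons, had a log2 fold change of 0.10 (adjusted p of 0.78 in edgeR), and Sox9, a progenitor factor and target of miR-124, had -0.088 (adjusted p of 0.755 in edgeR). The host transcript Mir124a-1hg, named after its values were seen, had 185, 221, 189 and 200 CPM in ICSI-F2 brains, against 169, 165.5, 200 and 200 CPM in control brains. It was the 1 gene of the 14 that passed between code A and code D controls, against 1.02% of tested genes. Its log2 fold change there was -0.26, with an adjusted p of 0.0342 in edgeR. In the code A libraries Ptbp1 itself was at 64.9 and 63.5 CPM. Mature miR-124 was not measured by these libraries.

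Transcripts known as targets of the 4 families were counted for their total level only. Of 16, 6 had a fold change above 1 and 10 below 1 in ICSI-F2 against control brains, with a median log2 fold change of -0.013. In edgeR 0 passed and 1 had an unadjusted p under 0.05, against 7.3% of tested genes. Grin1, which encodes the obligatory NMDA receptor subunit, was at 143, 138.5, 139 and 137 CPM in ICSI-F2 brains, against 154, 149, 142.5 and 156 CPM in control brains. ICSI-F2 replicate 1 lay just above control replicate 3, and the log2 fold change was -0.11 (SE 0.037), with an adjusted p of 0.539 in edgeR. Vamp1, a synaptic vesicle gene, had 16.1, 16.6, 13.7 and 14.6 CPM in ICSI-F2 brains, against 26.1, 22.1, 14.6 and 15.8 CPM in control brains. The code A controls were the highest of the 8 libraries, and between code A and code D controls Vamp1 rose with a log2 fold change of 0.67 and an adjusted p of 0.000626 in edgeR. Camta1, a transcription factor gene, had a log2 fold change of -0.046 with an adjusted p of 0.79 in edgeR.

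**Figure D5:**
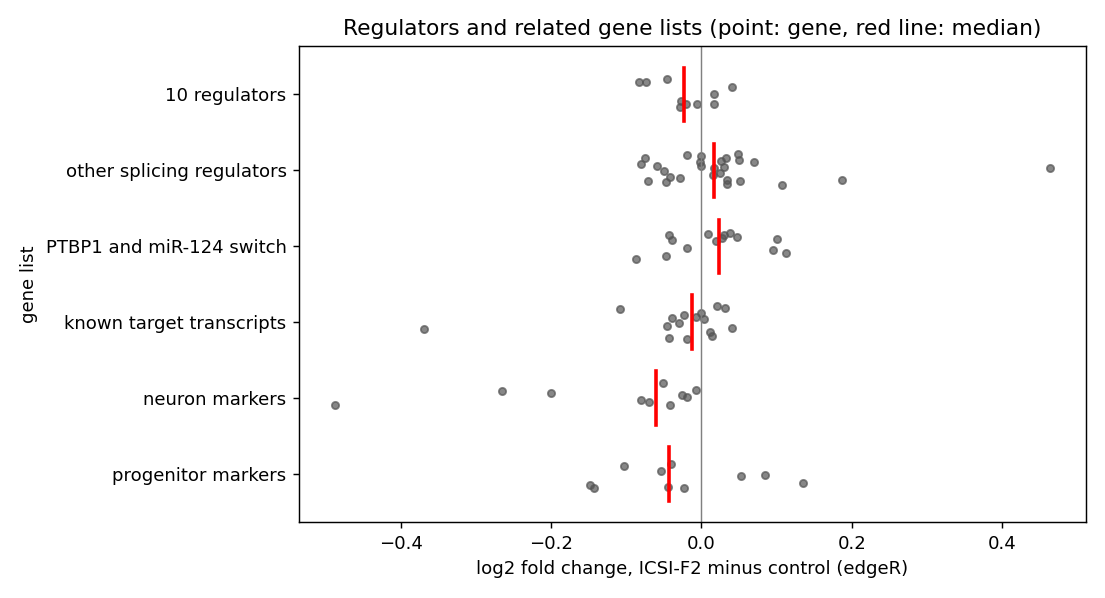
Log2 fold change of each gene, ICSI-F2 minus control in edgeR, for the 10 regulators and 5 other lists, with a red line at each list's median. Medians lie between -0.061 (neuron markers) and 0.023 (PTBP1 and miR-124 switch), and the points of the 10 regulators lie between -0.084 and 0.041.

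Neuron markers as a sum were lower in ICSI-F2 brains, beside the regulators. All 10 neuron markers had a fold change below 1 in ICSI-F2 against control brains, where 49.6% of all tested genes lay below 1. Of these markers, 0 of 10 passed in edgeR, with a median log2 fold change of -0.061. In edgeR 2 of them had an unadjusted p under 0.05, against 7.3% of tested genes. These 2 were Dcx, the doublecortin gene of young neurons, with a log2 fold change of -0.081 (adjusted p of 0.531 in edgeR), and Tubb3, a neuronal tubulin gene, with -0.070 (adjusted p of 0.607 in edgeR). The summed neuron marker level did not overlap between the groups, and the code D controls alone, at 7487 and 7598 CPM, were still above all ICSI-F2 libraries. Map2, Dcx and Tubb3 had the highest levels in this sum, with ICSI-F2 means of 2341, 1675 and 1337 CPM. Both code D libraries lay above the ICSI-F2 mean for these genes and Stmn2. They lay below it for Snap25, Syp, Nefl, Nefm and Nefh, and on either side of it for Syt1. The part of these markers in the values of Elavl4, Nova1 or the other regulators was not tested.

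Beside the lists that follow, 49.6% of all tested genes lay below 1 and 7.3% had an unadjusted p under 0.05 in edgeR. Progenitor and radial glia markers had 3 of 10 fold changes above 1 and 7 below 1, with 0 called in edgeR, and 2 had an unadjusted p under 0.05. These were Nes, the nestin gene, with a log2 fold change of 0.14, and Fabp7, with 0.085. The list's summed level was 1027 to 1085 CPM in ICSI-F2 and 1016 to 1139 CPM in control brains. Astrocyte and oligodendrocyte lineage markers had 9 of 10 fold changes below 1, with 0 called in edgeR and 5 at an unadjusted p under 0.05, a median log2 fold change of -0.14 and summed levels of 416 to 507 CPM in ICSI-F2 and 455 to 530.2 CPM in control brains. Meninges and vessel markers had 6 of 10 above 1, with 0 called and 3 at an unadjusted p under 0.05, and their summed level was 636 and 643 CPM in the code G libraries and 508 to 536 CPM in all others. Microglia markers had 6 of 8 above 1, with 0 called and 0 at an unadjusted p under 0.05. Cerebellar granule lineage markers had 5 of 6 below 1, with 0 called and 1 at an unadjusted p under 0.05. Of the posterior Hox and glycinergic genes, 4 of 10 were tested and 0 called, and of the liver markers, 1 of 7 was tested and 0 called in ICSI-F2 against control brains.

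Patterns across the 8 libraries were described by Pearson's r of log2 CPM between each member and the other 15564 tested genes. The libraries share their depth and tissue content in every such pair, the members varied by at most 1.15-fold, and the highest values were picked from a large number of genes, so these names describe likeness only. Elavl4 was most like Mdh2 (r = 0.97), Camta1 (r = 0.97) and Map2k1 (r = 0.969). Elavl3 was most like Rsu1 (r = 0.986), Ajap1 (r = 0.983) and H2afv (r = 0.973), and Elavl2 was most like Ap5s1 (r = 0.972), Fgf20 (r = 0.944) and Slc30a3 (r = 0.933). For Rbfox1 these were Fam189b (r = 0.986), Plcxd3 (r = 0.964) and 2810459M11Rik (r = 0.941). The genes for Rbfox2 were Ranbp10 (r = 0.992), Gpatch2 (r = 0.937) and Cenps (r = 0.934), and those for Rbfox3 were Fbxl4 (r = 0.966), Sac3d1 (r = 0.961) and Rnpep (r = 0.954). Nova1 was most like Sema4b (r = 0.974), C1ql1 (r = 0.961) and Cdk14 (r = 0.96), and Nova2 was most like Gm26793 (r = 0.989), Grrp1 (r = 0.966) and Prmt8 (r = 0.95). Gm26793 was at 1.253 CPM on average, a low level. For Ptbp1 the genes were Scmh1 (r = 0.959), Ptp4a3 (r = 0.954) and Tmem74 (r = 0.948), and for Ptbp2 they were Phf20l1 (r = 0.974), Epha7 (r = 0.965) and Gm38085 (r = 0.96).

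Values of r between members were lower, which the picking of the genes above as the highest of all tested genes makes likely in advance. The closest pair was Elavl2 and Nova1 (r = 0.828, n = 8), at place 85 among all genes for Elavl2 and 148 for Nova1. Elavl3 and Nova2 had r = 0.775, and Elavl4 was closest to Nova1 at r = 0.761. Ptbp1 ran opposite to Elavl4 (r = -0.69) and had its highest value within the set with Rbfox3 (r = 0.251). Ptbp2 had no positive value with any other member, the highest being -0.071 with Rbfox2. These are values over the same 8 libraries, in which the code A pair is high in Elavl4 and low in Ptbp1, and they are given without a test.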

How the data were processed

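The submitters' processing notes name bcl2fastq 2.20, cutadapt 3.4, HISAT2 2.2.1, HTSeq 2.0.2 and the build mm10, with no order. The authors deposited raw counts per gene for each library, made from single reads of 76 bases. Strand setting and annotation release are not stated there, and series text and sample protocols name different stranded library kits. Counts were tested with edgeR 4.0.16 (R 4.3.3): filterByExpr, TMM, robust quasi-likelihood F test, group as the only term, Benjamini-Hochberg adjustment over all tested genes at 0.05. Code letters were compared in 1 fit of 4 letters. The test was tried on simulated counts with 200 changed genes. False calls were 14 of 161 for ICSI-F2 against control and 14 of 135 for code A against code D. They were 22 of 142 for code G against code F. In each comparison this share was above the 0.05 that the adjusted p is set to hold. Simulated libraries were drawn independently, with no difference between code letters beyond the changed genes. Of genes changed 1.25-fold, 55.2%, 40.3% and 29.9% were recovered, in that order. Alternatives used DESeq2 1.42.0 and limma 3.58.1. Log2 CPM took a prior count of 1. TPM used exon lengths of GENCODE M21 on the same build, found for 32235 of 32285 identifiers (99.8%), and sequences were cut from its transcripts. Members were matched by symbol. Named from each other list were up to 3 tested genes with the smallest p, and for each member the 3 genes of highest r. Members and lists were chosen with earlier results of these data known. The libraries could not be paired, since replicate numbers were given in deposition order.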

Additional observations from a re-analysis of the deposited data

Results flagged for a closer look

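The level of Ptbp1 in the ICSI-F2 group was the 1 value of 22 groups of 4 libraries looked at in which a single library stood apart. ICSI-F2 replicate 1 had 72.5 CPM, against 66.1 to 66.8 CPM in the other 3 ICSI-F2 libraries, and its gap on the log2 scale was 0.89 of the group's whole range. Chance alone gives such a gap in about 1 group in 20. Without that library the log2 fold change of Ptbp1 between ICSI-F2 and control brains was 0.0058, against 0.041 with it.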

How the results depend on the processing

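None of the 10 regulators passed an adjusted p of 0.05 under any of the alternatives run, and the smallest adjusted p was 0.298 between ICSI-F2 and control, 0.124 between code A and code D and 0.644 between code G and code F. Direction held in 146 of 160 combinations of member and alternative for ICSI-F2 against control, in 125 of 130 for code A against code D and in 119 of 130 for code G against code F. Genes called over the whole table between ICSI-F2 and control numbered 1, against 4 with the DESeq2 Wald test, 50 with no filter on low counts, 6 without the code letter A libraries and 1 to 9 when each library was left out in turn. Between code A and code D they numbered 164, against 78 with DESeq2, 365 with no filter and 36 to 265 leaving out a library. Between code G and code F they numbered 53, against 24 with DESeq2, 97 with no filter and 21 to 74 leaving out a library. The log2 fold change of ICSI-F2 against control turned without the code A libraries to 0.028 for Elavl2, 0.036 for Elavl3, -0.0020 for Ptbp1 and -0.027 for Ptbp2. For Elavl3 it also turned to 0.0051 with total library size and to 0.016 without the code G libraries. Total library size turned Rbfox3 to -0.0097 between code A and code D, and Rbfox1 between code G and code F to -0.0026, while voom gave -0.00017 and no filter -0.0019 for Rbfox1. Leaving out each library in turn, values of ICSI-F2 against control ran from -0.046 to 0.0020 for Elavl2, -0.026 to 0.015 for Elavl3, -0.0081 to 0.040 for Rbfox3 and -0.016 to 0.052 for Ptbp2. Those of code A against code D ran from -0.044 to 0.096 for Rbfox1 and -0.071 to 0.069 for Rbfox3. Those of code G against code F ran from -0.079 to 0.0012 for Elavl2, -0.020 to 0.021 for Rbfox1, -0.053 to 0.077 for Rbfox3, -0.068 to 0.024 for Nova2 and -0.11 to 0.052 for Ptbp2. The cause of these turns was not tested. Where a letter was left with 1 library, it was taken to vary like the other letters. No paired analysis was possible because replicate numbers were given in deposition order and each code letter lies inside a single group. A random block for the letter in limma voom, with a consensus correlation of 0.028, changed no call. Counts per gene limit what can be seen here to total transcript levels.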
